A study of Homo sapiens with 13 samples.

Results

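The response of 3 myeloma cell lines to strong loss of IRF4 was compared, to ask which transcripts moved alike in H929, SKMM1 and KMS12 and which differed by line. The comparison rests on 6 of the 13 arrays of the series: H929 at day 4 (2 repeats), SKMM1 at day 4 (1 array), and KMS12 at day 2 or 3 (3 arrays, 1 from each of the culture series labelled 1332, 1332b and 2046). The groups follow the labels, but days 2 and 3 were picked for KMS12 because its IRF4 ratios were lowest there, so that choice used measured values. Each array set RNA of cells with an inducible hairpin against IRF4 (shi_1332, shi_1332b or shi_2046 in the labels, in Cy5) against RNA of the same line with a hairpin against luciferase (shluc, in Cy3). Cells of both kinds had received doxycycline, the inducer, at 20 ng/ml for the days given. The measure is the log ratio of the first to the second, taken as log2 from its range because no source used here gives its base. A value below 0 thus means less mRNA in cells with the IRF4 hairpin, and each array was centred so that its median feature lies at 0.

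Myeloma is a cancer of plasma cells, the antibody-secreting end stage of B cells. IRF4 is a transcription factor that drives plasma cell differentiation, binds DNA elements shared with other interferon regulatory factors, and is needed for the survival of myeloma cells whatever their founding lesion. The lines differ in that lesion: SKMM1 is known for a translocation that joins IRF4 to the immunoglobulin heavy chain locus, H929 for one that activates FGFR3 and NSD2 and for a mutant NRAS, and KMS12 for one that activates cyclin D1. The ratios hold no level of any gene in any line, so the identity of the lines could not be checked against plasma cell markers here.

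The line goes with the day in this comparison, since H929 and SKMM1 were taken at day 4 and KMS12 at day 2 or 3. For 2 of the 3 KMS12 arrays it also goes with the hairpin label, since H929 and SKMM1 carried hairpin 2046 alone. Line, day and hairpin therefore cannot be told apart, apart from the KMS12 2046 arrays at days 2 and 4 that are given beside the results. Between 7140 and 11584 of 15246 features carried a value on these 6 arrays, and 3043 of the 4728 genes and unnamed features that were kept had a value on all 6. Nothing in the labels states whether repeat arrays came from cultures grown apart. For differences between lines, p-values reflect array-to-array spread within the groups of all 13 arrays, part of which may be technical. For the response shared by the lines, they reflect the spread between the means of 3 lines. So few arrays and lines give limited precision. No dyes were swapped: a dye effect of a gene stays in its ratio and cancels only between arrays.

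IRF4 itself was lower in the hairpin cells on every array. With the ratios taken as log2, it stood in KMS12 at 45.2% of control in series 1332, 29.1% in series 1332b and 48.8% in series 2046. H929 had 28.9% and 25.7% on its repeats and SKMM1 had 24.6%. The KMS12 1332b array thus reached the knockdown of H929, while the other KMS12 arrays kept more IRF4 than any H929 or SKMM1 array. Both IRF4 features lay below 0 in the mean of the lines, and IRF4 was 3.34-fold lower there. The KMS12 arrays were chosen for their low IRF4, so these levels are a description, and no p-value is given for IRF4. It remains among the genes counted as called in the mean of the lines below, where it lends no support. In the same KMS12 series at days 4-5 the log2 ratio of IRF4 was -0.59, -0.64 and -0.75, weaker than on any of the 6 arrays.

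Over the tested genes, the H929 repeats correlated with each other at r = 0.66 and with SKMM1 at 0.64 and 0.67. The KMS12 1332b array correlated with repeat 2 of H929 at 0.64 and with SKMM1 at 0.59, against 0.51 with repeat 1 of H929 and 0.69 with its own line's 1332 array. The KMS12 1332 array correlated with H929 and SKMM1 at only 0.37 to 0.43. The KMS12 2046 array at day 2 stood apart, with correlations of 0.38 to both other KMS12 arrays and of 0.18 to 0.21 to H929 and SKMM1. These correlations are across genes, which are not independent replicates, and the arrays share the control hairpin and the dye order. Its ratios were also the most compressed: the median absolute deviation was 0.23, against 0.31 to 0.45 on the other 5 arrays. The main counts are therefore given with and without it. Features measured on only 1 to 9 of the 13 arrays, which did not enter the tests, had medians of 0.01 to 0.28 on these arrays, while features measured on all 13 had -0.17 to -0.04.

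**Figure D1:**
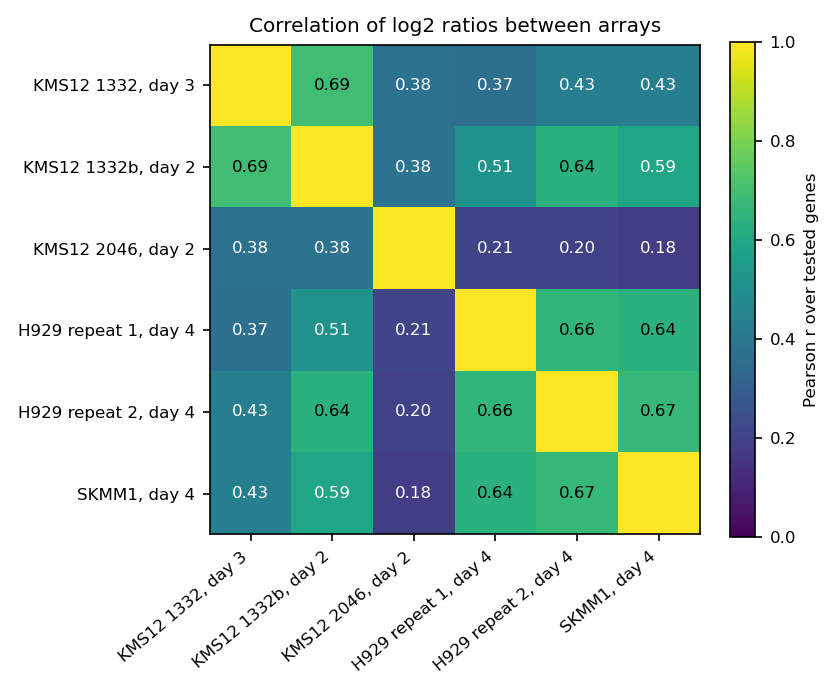
Pearson correlation of the log2 ratios between the 6 arrays over the tested genes; each cell is a pair of arrays and the colour scale runs from 0 to 1. The KMS12 2046 array at day 2 has its highest value, 0.38, with the other KMS12 arrays, while the KMS12 1332b array reaches 0.64 with repeat 2 of H929.

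A broad set of genes moved together in the 3 lines. Of the 4124 genes and unnamed features with a value in each line, limma called 614 when the line means were tested against 0: 449 fell (10.9%) and 165 rose (4.0%), with 1531 at an unadjusted p under 0.05. Without centring, the split was 650 to 84. Counted by array, 534 of 3043 lay below 0 on all 6 arrays (17.5%) and 577 lay above 0 on all 6 (19.0%). Without the KMS12 2046 array that stood apart, 731 were called, 591 of them among the 614. The count rests on single arrays in the other direction too. It was 375 without repeat 2 of H929, 57 without SKMM1 and 0 without the KMS12 1332b array, where 1237 still had an unadjusted p under 0.05, so each shared call below holds for the arrays as given. When the KMS12 2046 array at day 2 stood alone for its line, or the one at day 4, the count was 0 as well, with 938 and 774 at an unadjusted p under 0.05.

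Named genes lowered on all 6 arrays were ranked by how far their weakest array lay from 0. Beside IRF4, the leading 9 were HSP90B1, LMAN1, TNFRSF17, ME2, PHIP, TDG, ZMYM2, MAPK9 and CMPK1. They were chosen on the same values as the test against 0, which favoured passing it. In what follows, 6 values in a row stand for KMS12 1332 at day 3, 1332b at day 2 and 2046 at day 2, H929 repeats 1 and 2, and SKMM1. HSP90B1, the HSP90 chaperone of the endoplasmic reticulum, had log2 ratios of -1.08, -2.18, -0.82, -1.28, -1.55 and -1.52. The lowest value was in KMS12 and the highest was too, so the lines overlapped, and the gene fell in their mean by 1.43 on the log2 scale (SE 0.13, adjusted p = 0.0215). LMAN1, the cargo receptor that carries glycoproteins out of the endoplasmic reticulum, had -1.23, -1.80, -0.62, -1.68, -2.17 and -1.48. It too fell in every line (mean -1.54, SE 0.18, adjusted p = 0.0215), furthest on repeat 2 of H929.

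TNFRSF17, the surface receptor BCMA of plasma cells, had -1.01, -0.60, -1.09, -0.64, -0.57 and -0.93. Here the KMS12 2046 array was the lowest, and the spread over lines was narrow (mean -0.81, SE 0.14, adjusted p = 0.0274). ME2, the mitochondrial malic enzyme, had -0.87, -2.22, -0.74, -0.59, -1.10 and -2.32. It was low on the SKMM1 and KMS12 1332b arrays and less so in H929 (mean -1.48, SE 0.28, adjusted p = 0.0287). PHIP, a bromodomain protein that binds chromatin and substrates of a ubiquitin ligase, had -3.70, -1.88, -0.87, -1.65, -1.37 and -2.16, its value on the KMS12 1332 array standing far below the others (mean -1.94, SE 0.18, adjusted p = 0.0215). PHIP did not stay low in KMS12, where its log2 ratios at days 4-5 were -0.80, 0.17 and -0.07. Also in this set were TDG (-1.09), a glycosylase that removes mismatched thymine from DNA, and ZMYM2 (-1.26), a zinc finger protein of corepressor complexes. The set ended with MAPK9 (-0.77), the stress kinase JNK2, and CMPK1 (-1.07), which phosphorylates pyrimidine monophosphates. All 4 passed by limma, with adjusted p values of 0.0215 to 0.028, which the choice of genes on these values favoured.

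Among the genes raised on every array, WDR33 was the highest, with log2 ratios of 1.24, 1.16, 1.61, 1.25, 1.26 and 1.32. WDR33, part of the complex that recognises the polyadenylation signal of mRNA, rose to nearly the same degree in each line (mean 1.31, SE 0.13, adjusted p = 0.0215), and in KMS12 at days 4-5 it stood at 0.02, 0.62 and 0.20. ISG15, a ubiquitin-like protein induced by interferon, had 0.58, 1.05, 0.44, 0.89, 1.22 and 0.92. It rose in the mean of the lines (0.89, SE 0.14, adjusted p = 0.0238), and all 3 of its features lay above 0. IL2RG, the common chain of several cytokine receptors, had 0.96, 0.95, 0.51, 0.65, 0.51 and 0.54, with 5 of 5 features above 0 (mean 0.64, SE 0.14, adjusted p = 0.0358). CDT1, which loads the replicative helicase onto DNA, had 0.53, 0.70, 0.44, 0.60, 0.64 and 0.58 (mean 0.59, SE 0.13, limma adjusted p = 0.0377). Its range was the narrowest of the 20 lowered or raised genes chosen by their weakest array. At days 4-5 in KMS12 CDT1 lay at -0.60, -0.46 and 0.02.

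The remaining raised genes chosen by their weakest array included MAPK12 (0.53), a p38 kinase, and PDGFRA (0.70), a growth factor receptor of mesenchymal cells. With them came TTR (0.81), a thyroid hormone carrier made mainly by liver, and NQO2 (0.58), a quinone reductase. NDUFB7 (0.60), a subunit of respiratory complex I, and GSTM4 (0.60), a glutathione transferase, completed the set. Adjusted p values of these 6 by limma ran from 0.0274 to 0.0478, so all 6 passed, MAPK12 by a narrow margin. The raised genes too were chosen on the values tested, which favoured passing. PDGFRA and TTR are not genes of the B lineage. Beside them, markers of other cells also lay above 0 without passing: 8 of 9 T cell markers (median 0.37 against 0.01 for all genes), 5 of 6 myeloid markers (0.34) and 6 of 8 erythroid and stromal markers (0.31), with none called. By array the median of the T cell markers was 0.14, 0.22, -0.09, 0.28, 0.48 and 0.44, that of the myeloid markers 0.31 to 0.43 in KMS12 and 0.22 to 0.42 in the other lines, and that of the erythroid and stromal markers -0.02 to 0.53 and 0.11 to 0.34. Genes of earlier B cells had a median of 0.17, with 15 of 21 above 0 and none called. The part of such faint signals in the raised genes was not tested.

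**Figure D2:**
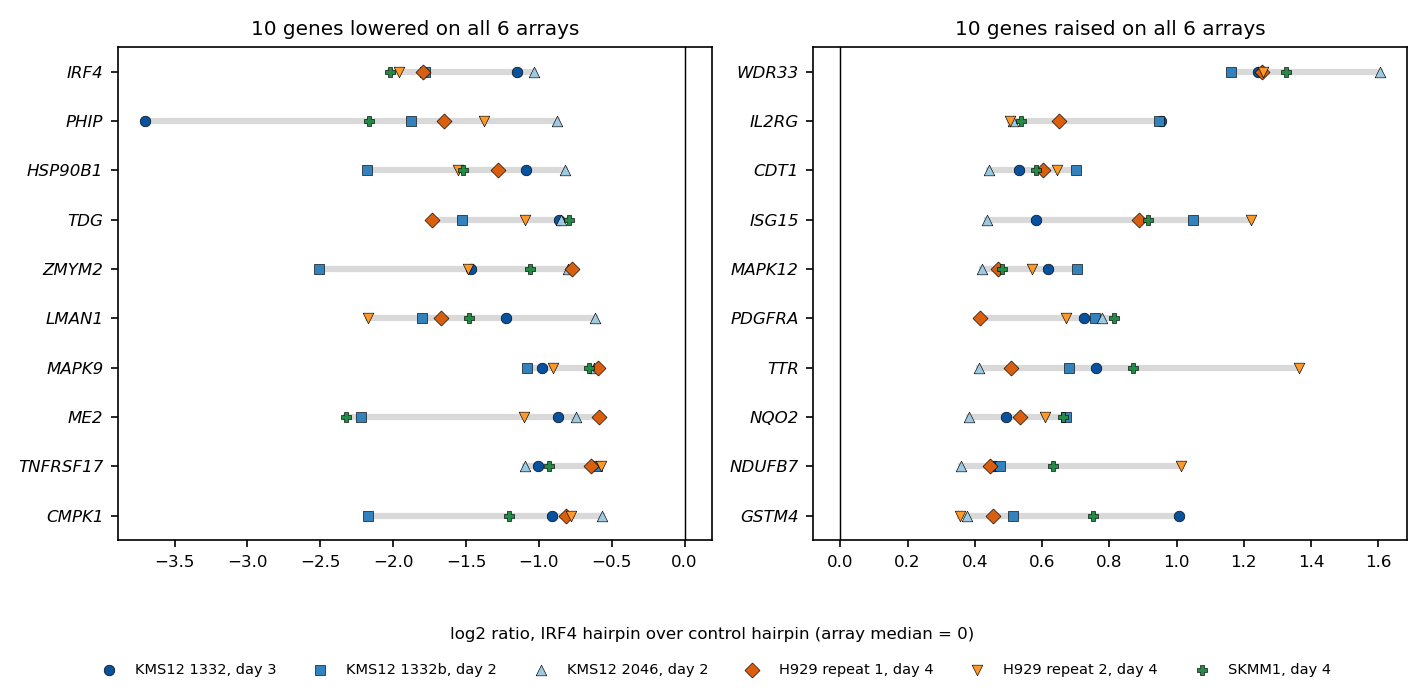
Log2 ratio of IRF4 hairpin over control hairpin cells on each of the 6 arrays for the 10 lowered and the 10 raised genes whose weakest array lay furthest from 0. Each point is 1 array and the grey bar spans its range. The KMS12 2046 array at day 2 is the closest to 0 for HSP90B1, LMAN1 and ISG15 but the furthest for WDR33 and TNFRSF17.

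Promoter sequences are shown for genes of the shared response whose known regulators have a recognised DNA element, HSP90B1 and HSPA5 for the unfolded protein response and ISG15 for interferon regulatory factors. They come from RefSeq on build GRCh38.p14 and run from 250 bases before to 50 after the start of the gene, on the strand of the gene, with the matched elements in capitals. HSP90B1 lies at chr12:103930160-103930459 (plus strand), HSPA5 at chr9:125241294-125241593 (minus strand) and ISG15 at chr1:1013247-1013546 (plus strand).
HSP90B1: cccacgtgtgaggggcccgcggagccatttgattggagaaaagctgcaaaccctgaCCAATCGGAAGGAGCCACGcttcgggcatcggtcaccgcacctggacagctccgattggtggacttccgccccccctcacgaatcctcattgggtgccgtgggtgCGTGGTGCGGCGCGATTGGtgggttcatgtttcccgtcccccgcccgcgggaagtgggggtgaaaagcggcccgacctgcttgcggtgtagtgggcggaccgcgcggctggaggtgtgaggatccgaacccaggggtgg
HSPA5: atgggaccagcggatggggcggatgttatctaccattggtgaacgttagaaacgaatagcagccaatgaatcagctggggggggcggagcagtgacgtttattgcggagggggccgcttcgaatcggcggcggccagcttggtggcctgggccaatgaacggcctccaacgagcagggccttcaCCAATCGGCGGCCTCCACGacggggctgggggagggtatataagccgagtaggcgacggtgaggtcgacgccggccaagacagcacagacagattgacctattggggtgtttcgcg
ISG15: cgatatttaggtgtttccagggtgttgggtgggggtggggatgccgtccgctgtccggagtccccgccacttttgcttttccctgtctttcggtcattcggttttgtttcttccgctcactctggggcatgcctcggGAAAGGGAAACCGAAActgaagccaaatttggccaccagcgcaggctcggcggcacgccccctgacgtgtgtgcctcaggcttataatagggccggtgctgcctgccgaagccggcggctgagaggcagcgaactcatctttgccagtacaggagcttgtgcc
HSP90B1 is one of the lowered genes chosen by their weakest array. HSPA5, ISG15 and the elements were picked after the values and matches had been seen. No element of interferon regulatory factors was found in the windows of the other leading genes, PHIP, WDR33, IL2RG and CDT1. In HSP90B1 and HSPA5 the capitals mark the endoplasmic reticulum stress element, searched on both strands as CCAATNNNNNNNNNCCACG. HSP90B1 holds it at 194 bases before the start and, on the other strand, at 89, and HSPA5 holds it at 66. Of all 35114 promoters of this length, 27 held a match (0.0769%), and so did 2 of the 6 lowered genes of the endoplasmic reticulum list and 3 of its 12 other genes with a promoter, among them XBP1. The list is made of genes of the unfolded protein response, to which the element belongs, so its share beside that of all promoters is no test. Whether lowered genes of the list hold the element more often than its other genes was not tested. In ISG15 the capitals mark 2 overlapping matches to an element of interferon regulatory factors (GAAANNGAAA), the first of them 113 bases before the start. That element is in 3.57% of all promoters, and the composite element for IRF4 with an ETS partner (GGAANNGAAA) is in 2.82%, with 6.13% holding either on any strand. Among the genes chosen by their weakest array that had a promoter in the table, 1 of 9 lowered (CMPK1) and 1 of 9 raised (ISG15) held either. The promoter of IRF4 held none in this window.

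Of the 27 gene lists, that of mitosis held the most genes that fell. Of 35 G2/M genes tested, 12 fell and 0 rose, where 10.9% of all genes fell, and 15 of the 34 with a value on all 6 arrays lay below 0 on each. The median of the list was -0.39 in the mean of the lines, and by array it was -0.54, -0.42, -0.11, -0.28, -0.43 and -0.48, with the KMS12 2046 array the nearest to 0. BUB1, a kinase of the spindle checkpoint, had log2 ratios of -0.94, -1.72, -0.09, -1.36, -2.06 and -1.64 (mean -1.42, SE 0.20, adjusted p = 0.0215). TOP2A, the topoisomerase of dividing cells, had -1.58, -1.78, -0.14, -1.05, -1.16 and -1.93 (mean -1.40, SE 0.20, adjusted p = 0.0215). CDK1, the kinase that drives entry into mitosis, had -0.99, -1.52, -0.08, -0.86, -0.93 and -2.05 (mean -1.27, SE 0.26, adjusted p = 0.0321). For all 3 the KMS12 2046 array lay between -0.14 and -0.08, far from every other array. Also lowered were MAD2L1 (-1.38) of the spindle checkpoint, the cohesin subunits RAD21 (-1.19) and STAG2 (-0.82), CCNA2 (-1.01), KIF23 (-0.91), CENPF (-0.87), with 7 of 7 features below 0, AURKA (-0.70), CKS2 (-0.65) and BUB1B (-0.55). Without the KMS12 2046 array 13 G2/M genes fell.

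DNA replication genes were more mixed. Of 27 G1/S genes, 5 fell and 2 rose, with a list median of -0.25. PCNA, the sliding clamp of DNA polymerases, fell by 0.98 on the log2 scale (SE 0.18, adjusted p = 0.0285), and PRIM1, the catalytic subunit of primase, by 0.96 (SE 0.15, adjusted p = 0.0215). CDK6, a kinase that starts the cycle, had -2.35, -2.69, -0.40, -0.29, -1.0 and -1.05, so that its lowest values were in the KMS12 1332 and 1332b arrays (mean -1.17, SE 0.23, adjusted p = 0.0309). E2F3 (-0.63) and RFC4 (-0.55) fell as well. CDT1 and MCM5 (0.61, adjusted p = 0.045), a subunit of the helicase, were the 2 that rose. Of 15 genes of quiescence and cell cycle inhibition 2 fell and 2 rose, 13.3% each way against 10.9% and 4.0% of all genes. CDKN1B (-0.82), which encodes p27, and RBL2 (-1.02), a relative of the retinoblastoma protein, fell, and KLF4 (0.79), a transcription factor, and MXD4 (0.58), a partner that opposes MYC, rose.

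Chaperone genes fell in part. Of 18 genes of folding and the unfolded protein response in the endoplasmic reticulum, 6 fell (33.3%, against 10.9% of all genes) and 0 rose (median -0.37). Beside HSP90B1 these were SSR1 (-1.06), a subunit of the translocon-associated complex, HSPA5 (-1.01), the main chaperone of the compartment, DNAJB9 (-0.87), ERP44 (-0.81) and PDIA4 (-0.73), with adjusted p values between 0.0215 and 0.0461. HSPA5 had -0.08, -1.24, -0.43, -0.95, -1.60 and -1.17, hardly below 0 on the KMS12 1332 array. Among cytosolic and mitochondrial heat shock genes 4 of 7 fell (57.1%, median -0.67). HSP90AA1, the inducible cytosolic HSP90, had -2.26, -2.84, -0.48, -0.52, -1.43 and -2.05 (mean -1.63, SE 0.23, adjusted p = 0.0215), and HSPA9, the mitochondrial HSP70, had -0.40, -1.26, -0.56, -0.92, -1.47 and -1.11 (mean -1.01, SE 0.15, adjusted p = 0.0215). The other 2 that fell, CCT8 (-1.07) and CCT3 (-0.68), are subunits of the chaperonin that folds actin and tubulin. HSP90AB1, the constitutive cytosolic form, did not pass (-0.29, adjusted p = 0.214).

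Amino acid supply and mitochondrial metabolism were lowered in part. Of 25 genes under the transcription factor ATF4, 8 fell (32.0%, against 10.9% of all genes) and 0 rose (median -0.20). MTHFD2, a mitochondrial enzyme of one-carbon metabolism, had -0.88, -1.96, -0.36, -1.10, -1.96 and -1.70 (mean -1.43, SE 0.17, adjusted p = 0.0215). The transfer RNA synthetases TARS1 (-1.16), NARS1 (-1.14), EPRS1 (-0.73) and IARS1 (-0.72) fell, as did NUPR1 (-1.08), a stress-induced chromatin protein, CTH (-0.79), which makes cysteine, and VEGFA (-0.77). In the citric acid cycle 6 of 14 genes fell (42.9%, median -0.52), ME2 among them with DLD (-1.07), SUCLG2 (-0.98), MDH1 (-0.91), IDH1 (-0.88) and IDH3A (-0.68). In oxidative phosphorylation 4 of 9 fell (44.4%, median -0.43), namely CYCS (-0.89), which encodes cytochrome c, UQCRB (-0.86), COX7C (-0.61) and UQCRC2 (-0.59). Of 8 sterol and fatty acid genes 3 fell (37.5%, median -0.44): SQLE (-1.18), which starts sterol ring formation, FADS1 (-0.87), a fatty acid desaturase, and INSIG1 (-0.80), the sterol-regulated anchor of the endoplasmic reticulum. No gene of these 4 lists rose. The medians of the 4 lists were nearest to 0 on the KMS12 2046 array, between -0.24 and -0.06.

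The genes of growth and of plasma cells moved only in part. Of 19 genes of MYC and its targets, 4 fell and 1 rose, with a median of -0.07. MYC itself had 0.10, -0.77, -0.28, -0.41, -1.09 and -0.93. It was above 0 on the KMS12 1332 array and lowest on repeat 2 of H929, and it fell in the mean of the lines by 0.67 (SE 0.17, adjusted p = 0.0478), with 4 of 4 features below 0. EIF4E (-1.32), which binds the cap of mRNA, NCL (-1.24), the nucleolar protein nucleolin, and LDHA (-0.91), which makes lactate, fell with it, and CAD (0.71), which starts pyrimidine synthesis, rose. The list of 16 plasma cell genes includes IRF4, for whose low ratio the KMS12 arrays were chosen; of its other genes 2 fell, TNFRSF17 and JCHAIN (-1.15, SE 0.15, adjusted p = 0.0215), the joining chain of secreted antibodies, a share near the 10.9% of all genes. PRDM1, the factor BLIMP1 that enforces the plasma cell state, had -0.10, -0.96, -0.38, -0.66, -0.33 and -1.47 and did not pass (mean -0.82, adjusted p = 0.0591).

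Few listed genes rose. In the interferon list 18 of 23 genes lay above 0 (median 0.15), and 7 of 22 lay above 0 on all 6 arrays against 19.0% of all genes. Of the 23, 2 rose by limma (8.7%, against 4.0% of all genes). They were ISG15 and EIF2AK2 (0.70, SE 0.18, adjusted p = 0.0483), the kinase PKR that halts translation. Without centring the median of this list was 0.03. Of 22 apoptosis genes 2 fell (9.09%) and 1 rose, shares near those of all genes, with a median of 0.01. TNFSF10, the death ligand TRAIL, rose in the mean of the lines (1.24, SE 0.23, adjusted p = 0.0285), with values of 0.84 and 1.05 on the 2 KMS12 arrays that measured it, 0.90 and 0.82 in H929, and 1.90 in SKMM1. MCL1, a survival protein on which myeloma cells depend, had -0.32, -1.15, -0.11, -0.90, -1.56 and -0.70 and fell (mean -0.82, SE 0.18, adjusted p = 0.0353), with 5 of 5 features below 0. CCNG1, cyclin G1, a p53 target, fell the furthest of the listed genes (-1.90, SE 0.33, adjusted p = 0.0274), with SKMM1 at -2.91 and the KMS12 2046 array at -0.05. The 8 MHC class II genes all lay above 0 in the mean of the lines (median 0.25), but 0 passed by limma, with 1 at an unadjusted p under 0.05, HLA-DPA1 (0.47, adjusted p = 0.0748). By array the median of the 9 measured class II genes was 0.57, 0.43, 0.20, 0.10, 0.18 and 0.27. It also lay above 0 on the uninduced KMS12 arrays of series 1332, 1332b and 2046, at 0.14, 0.10 and 0.44. The median of all genes went from 0.01 to -0.11 without centring, so all these changes are relative to the median gene.

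**Figure D3:**
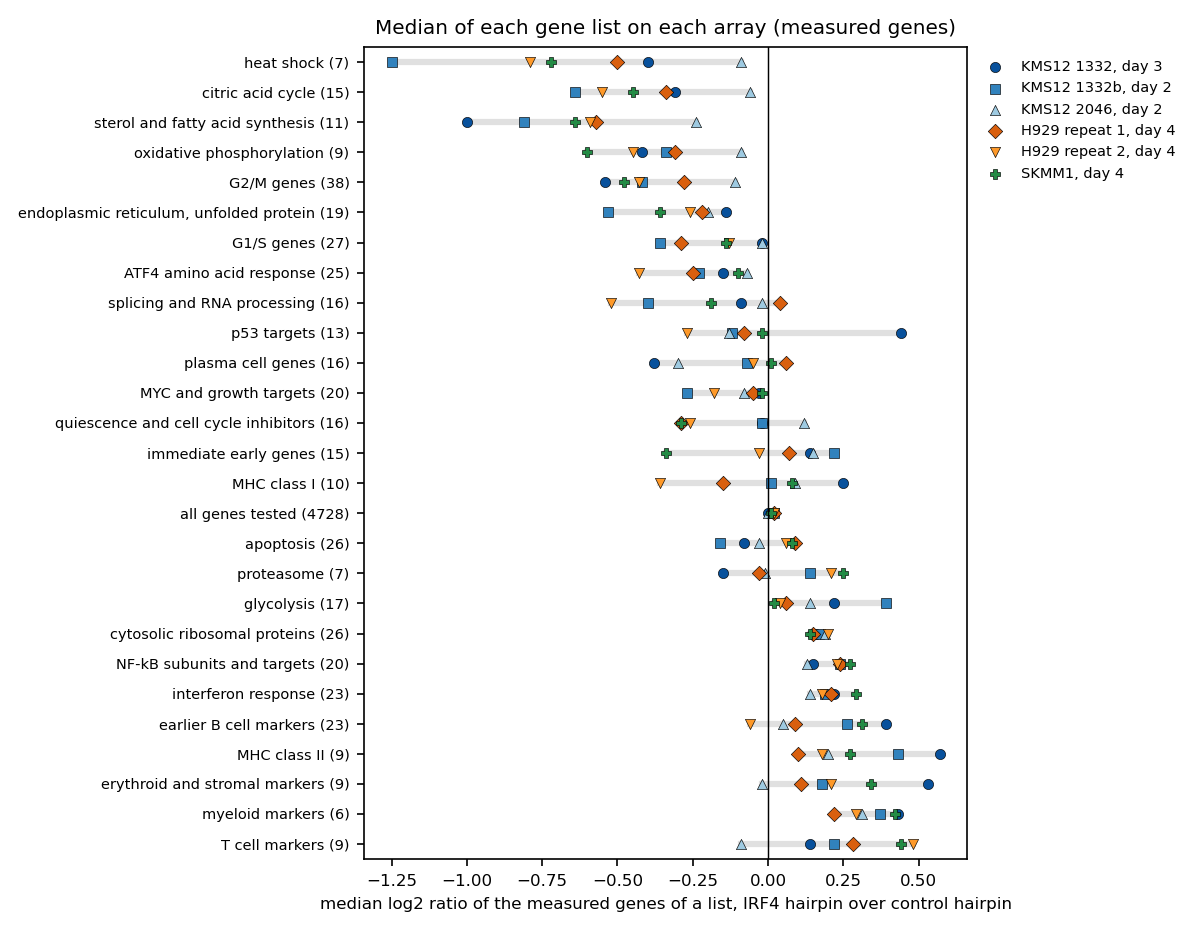
Median log2 ratio of each gene list with 5 or more measured genes on each of the 6 arrays, with the number of measured genes in brackets; each point is 1 array, the grey bar spans its range, and lists are ordered by their median in the mean of the lines. Heat shock, citric acid cycle, sterol, oxidative phosphorylation and G2/M genes lie below 0 on all arrays, and the KMS12 2046 array at day 2 is the nearest to 0 in each of them.

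Differences between the lines were then tested. The mean of H929 and SKMM1 was set against the 3 KMS12 arrays, and limma called 5 of 4124 genes and features (0.121%), 3 higher and 2 lower, with 644 at an unadjusted p under 0.05 and 114 at an adjusted p under 0.1. Of 3043 genes measured on all 6 arrays, 324 had all H929 and SKMM1 values above all KMS12 values (10.6%) and 348 had them all below (11.4%). Without the KMS12 2046 array at day 2, 56 were called, 47 higher and 9 lower, among them all 5. Limma called 0 without the KMS12 1332 array (478 at an unadjusted p under 0.05), 0 without repeat 1 of H929 (521) and 1 without repeat 2 of H929. The count was also 0 without centring, with the arrays scaled to a common spread, and in a fit of the 6 arrays alone.

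CCNC, which encodes cyclin C of the Mediator kinase module, had the largest difference of the 3 named genes called. Its log2 ratios were -2.04, -2.12 and -0.87 in KMS12, 0.53 and 0.54 in H929 and 0.17 in SKMM1. The lines did not overlap, and the 3 arrays of H929 and SKMM1 lay above 0 where the KMS12 arrays lay below. The difference was 2.03 (SE 0.32, adjusted p = 0.0446), with both features the same way. In KMS12 at days 4-5 CCNC stood at -0.46, -0.53 and -0.49. Against the KMS12 2046 array at day 4, which shares hairpin and day with H929 and SKMM1, the difference was 0.84 and did not pass (adjusted p = 0.464).

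ADH5, which oxidises formaldehyde bound to glutathione, had -0.90, -0.57 and -0.58 in KMS12, 0.21 and 0.26 in H929, and 1.40 in SKMM1. The lines did not overlap, and SKMM1 stood well above H929 (difference 1.5, SE 0.23, adjusted p = 0.0446). At day 4 in KMS12 it was at -0.03 and -0.14, and against the 2046 array of that day the difference was 0.95 (adjusted p = 0.313). SERPINA1, the secreted protease inhibitor alpha-1-antitrypsin, had 0.10, -0.10 and 0.34 in KMS12, -1.24 and -1.42 in H929, and -0.88 in SKMM1. It was lower in both other lines and near 0 in KMS12 (difference -1.22, SE 0.19, adjusted p = 0.0446). KMS12 had 0.37, 0.58 and 0.38 at days 4-5, and the difference from the 2046 array at day 4 was -1.49 (adjusted p = 0.0854). The other 2 calls were features with no gene name, 1 higher (1.86) and 1 lower (-1.81).

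No plasma cell gene passed in this comparison. ELL2, an elongation factor that favours the secreted form of immunoglobulin mRNA, had -1.13, -0.87 and -0.62 in KMS12, 0.46 and 0.57 in H929, and 1.35 in SKMM1. The lines did not overlap and lay on opposite sides of 0, and the difference of 1.81 (SE 0.32) stood just outside the threshold (adjusted p = 0.0513). KMS12 stayed below 0 at days 4-5, at -1.11, -0.56 and -1.29. SLAMF7, a surface receptor of plasma cells, had -1.03, -0.77 and -0.72 in KMS12, 0.12 and 0.33 in H929, and 0.23 in SKMM1, with all 3 features higher outside KMS12 (difference 1.07, SE 0.24, adjusted p = 0.0663). ITGA4, an integrin chain that holds plasma cells in the marrow, had -1.08, -1.49 and -0.49 in KMS12, 0.32 and -0.19 in H929, and -0.29 in SKMM1 (difference 0.91, SE 0.29, adjusted p = 0.158). XBP1, the transcription factor that builds the secretory apparatus, went the other way, with 0.13 and 0.14 on the KMS12 1332 and 2046 arrays and 1332b at 0, against -0.78 and -0.88 in H929 and -0.70 in SKMM1 (difference -0.85, SE 0.23, adjusted p = 0.105). Of the 14 plasma cell genes measured on all 6 arrays, 3 lay wholly above KMS12 and 2 wholly below, against 10.6% and 11.4% of all genes.

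Genes on opposite sides of 0 in KMS12 and in both other lines numbered 75 with KMS12 below and 70 with KMS12 above, of 3043. The 10 named ones were chosen for this pattern, and none passed. With KMS12 below 0 were ELL2, SEL1L (difference 1.33), which carries misfolded proteins to degradation at the endoplasmic reticulum, SNX10 (1.95), an endosomal sorting protein, PPP4R3B (1.28), a subunit of protein phosphatase 4, and ZNF443 (1.61), a zinc finger protein. The difference of SNX10 rested in part on the KMS12 1332 array at -2.27, and at days 4-5 in KMS12 SNX10 and ZNF443 had values on both sides of 0. With KMS12 above 0 were CCL3 (-1.39), a chemokine that myeloma cells release, EZR (-1.08), which ties membrane to actin, ANXA1 (-1.28), SOX4 (-0.96), a transcription factor of early B cells, and CELA3A (-0.86), a pancreatic elastase. CCL3 had 0.31, 0.37 and 0.86 in KMS12, -0.59 and -0.82 in H929 and -1.06 in SKMM1, and it stayed above 0 in KMS12 at days 4-5 (0.29, 0.52 and 0.52). EZR had 0.35, 0.21 and 0.45 in KMS12, -0.58 and -0.83 in H929 and -0.79 in SKMM1, with KMS12 at 0.14, 0.33 and 0.74 at days 4-5. Adjusted p values of the 10 ran from 0.0513 to 0.197.

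**Figure D4:**
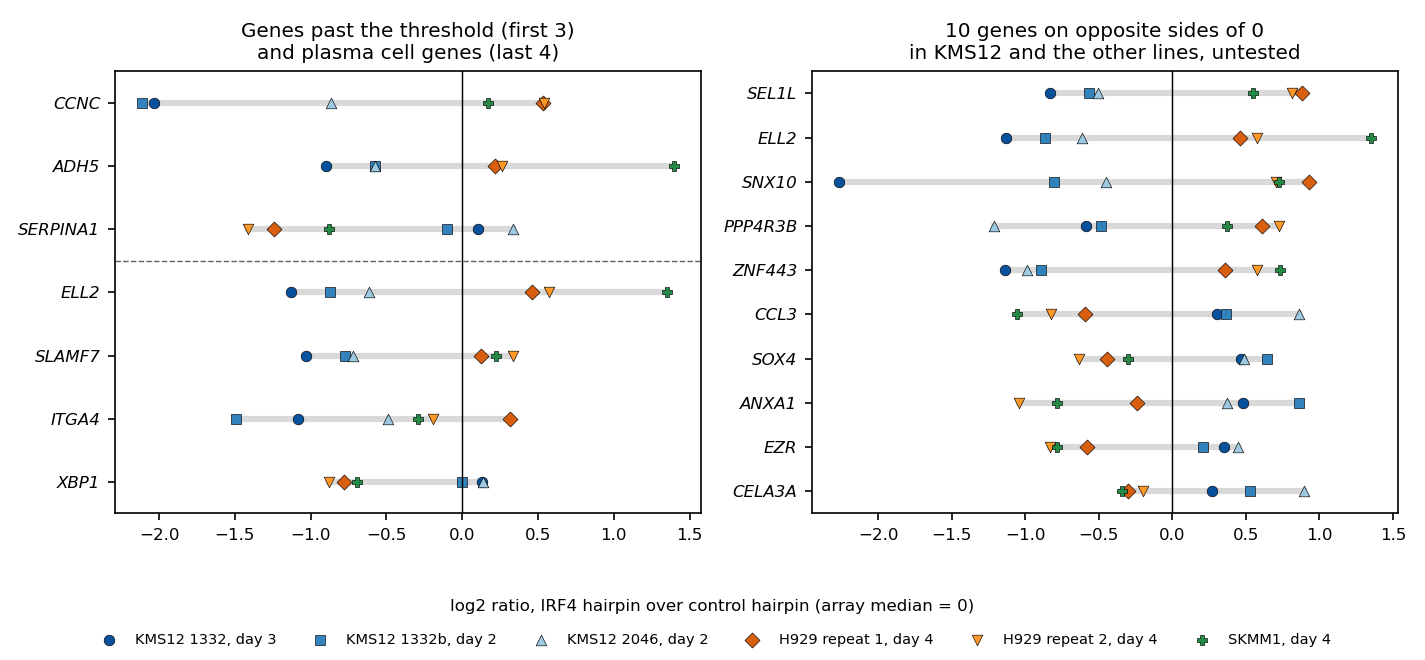
Log2 ratio of IRF4 hairpin over control hairpin cells on each of the 6 arrays; the left panel has the 3 named genes past the threshold above the dashed line and 4 plasma cell genes that did not pass below it, and the right panel has 10 genes on opposite sides of 0. Each point is 1 array and the grey bar spans its range; CCNC lies between -2.12 and -0.87 in KMS12 and above 0 on the other 3 arrays.

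Lists differed little between KMS12 and the other lines. All genes had a median difference of -0.02, with 2144 of 4124 lower and 1980 higher in H929 and SKMM1. In each list 0 or 1 member was called, the 1 being CCNC. Of 17 glycolytic genes, 16 lay lower in H929 and SKMM1 than in KMS12 (median difference -0.23), and 5 of 15 lay wholly below KMS12 against 11.4% of all genes. Against the KMS12 2046 array alone, 10 of 17 lay lower at day 2 (median difference -0.17) and 10 of 17 at day 4 (-0.04). By array the median of this list was 0.22, 0.39, 0.14, 0.06, 0.04 and 0.02. On the uninduced KMS12 arrays of series 1332, 1332b and 2046 it was 0.20, -0.01 and 0.23. H929 and SKMM1 have no uninduced array. LDHA differed by -0.94, PGK1 by -0.69, SLC2A3, a glucose transporter, by -0.67 and ALDOC by -0.58, and none passed (adjusted p values of 0.146 to 0.233). Of the ATF4 genes, 22 of 25 lay lower (median difference -0.15), again with 0 called by limma and 2 at an unadjusted p under 0.05. Among interferon genes 15 of 23 lay higher (median difference 0.22). For H929 alone the median difference was 0.02, with 12 of 23 higher, and for SKMM1 alone 0.23, with 16 of 23 higher. The smallest p belonged to IFNGR1, a chain of the interferon gamma receptor, with -0.83, -0.48 and -0.75 in KMS12, 0.43 and 0.75 in H929 and 0.25 in SKMM1 (difference 1.11, SE 0.20, adjusted p = 0.0513), followed by IRF9 (0.88, adjusted p = 0.0667). In the G2/M list 22 of 35 genes lay lower in H929 and SKMM1 than in KMS12 and 13 higher (median difference -0.17). Without the KMS12 2046 array at day 2, 17 lay lower and 18 higher (median difference 0.01). Among the 13 that lay higher with all KMS12 arrays were TTK and CENPE, a checkpoint kinase and a kinetochore motor. Both lay below 0 on the KMS12 arrays and higher on each other array, without passing. TTK had -1.32, -0.76, -0.46, 0.16, -0.03 and 0.49 (difference 1.12, adjusted p = 0.0839), and CENPE had -2.75, -0.78, -0.96, -0.03, 0.16 and 0.46 (difference 1.76, adjusted p = 0.145).

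Taken singly, H929 differed from KMS12 in 0 of 4607 genes by limma, with 517 at an unadjusted p under 0.05. Without the KMS12 2046 array at day 2 the count was 42, 35 of them higher in H929, and without the KMS12 1332b array or repeat 2 of H929 it was 3. The named genes with the smallest p were SERPINA1 (difference -1.44), BATF (-2.16), a partner of IRF4 on DNA, CCNC (2.21), WDR36 (2.73), a ribosome assembly factor, and IFNGR1 (1.27), with adjusted p values of 0.0681 to 0.078. BATF was measured on 1 of the H929 arrays, at -1.93, and on 2 of the KMS12 arrays, at 0.23 on both, and it had no value in SKMM1. WDR36 was likewise measured on 1 H929 array, at 1.20, against -2.10, -1.64 and -0.85 in KMS12.

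SKMM1 differed from KMS12 in 2 of 4199 (0.0476%), the same unnamed features (differences of 2.82 and -2.44), with 538 at an unadjusted p under 0.05. SKMM1 is a single array whose spread was taken from the other groups, and the higher feature had values on only 2 KMS12 arrays and 1 H929 array. Without the KMS12 2046 array 17 were called, and without the 1332b array 11. Among named genes, none of which passed, the smallest p belonged to BMP6 (difference -1.73), a growth factor, ADH5 (2.08), P4HA1 (-1.80), which hydroxylates proline in collagen, RARG (-2.79), a retinoic acid receptor, and TASOR2 (2.05), a relative of a gene silencing subunit, with adjusted p values of 0.0527 to 0.0778. The single SKMM1 array stood alone in BMP6, at -2.18 against -0.63 and -1.07 in H929 and -0.58 to -0.33 in KMS12.

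H929 and SKMM1 did not differ in any gene past the threshold: limma called 0 of 4124, with 228 at an unadjusted p under 0.05. Without the KMS12 2046 array, which enters only the estimate of spread here, 3 were called, and without repeat 2 of H929 1 was. The named gene with the smallest p was CASP8. CASP8, the initiator caspase of death receptors, had 0.47 and 0.83 in H929 and -1.54 in SKMM1 (difference 2.18, SE 0.30, adjusted p = 0.0524), with KMS12 at -0.31, -0.29 and -0.11. BNIP3, a mitochondrial protein of mitophagy and also among the named genes of smallest p, had -0.55 and -0.87 in H929 and 1.01 in SKMM1 (difference -1.72, SE 0.36, adjusted p = 0.293). Both genes have features of opposite sign in the mean of the lines. Between single arrays, the median absolute log2 difference was 0.23 for the repeats of H929, 0.26 and 0.28 for H929 against SKMM1, 0.29 to 0.37 for H929 against KMS12, and 0.33 to 0.40 for SKMM1 against KMS12. Pairs of KMS12 arrays differed by 0.29 to 0.34.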

How the data were processed

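Two-colour Lymphochip cDNA arrays measured RNA of cells with an IRF4 hairpin (Cy5) against a luciferase hairpin (Cy3). The authors deposited 1 log2 ratio per feature and array. No source used here gives its log base, background correction or normalization; it was taken as log2 from its range, -9.78 to 7.51. Ratios were centred on each array's median. Features needed a value on 10 of 13 arrays and on 2 of the 3 arrays of each KMS12 window (6879 of 15246), and features of 1 gene were averaged, giving 2833 named genes and 1895 unnamed features. Symbols came from the platform annotation: 10169 features had 1 symbol, 4 several and 5073 none, and 10128 symbols were found in the RefSeq table.

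Limma 3.58.1 (R 4.3.3) was fitted to all genes: 6 group means over 13 arrays for differences between lines, and 1 value per line against 0 for the shared response. Tests were two-sided, with Benjamini-Hochberg adjustment over all genes and a threshold of 0.05. The scripts were tested on simulated data. IRF4 was lowered on all 6 arrays, as the dye labels require. The lowest correlation between arrays, -0.33, was between the uninduced KMS12 2046 array and SKMM1, and the direction was kept.

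The members and gene lists were chosen with earlier results of these data known. Named were IRF4; the 10 lowered and 10 raised genes whose weakest array lay furthest from 0; called genes, or the 5 with the smallest p; the 5 and 5 genes furthest on opposite sides of 0; and up to 4 list members with the smallest p per comparison. Others, such as HSPA5 and ISG15 for their promoters, were chosen after their values were seen. Alternatives changed the centring, scaling, filter, arrays and fit.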

Additional observations from a re-analysis of the deposited data

Results flagged for a closer look

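The mean effect of the IRF4 hairpin in H929 and SKMM1 differed from that in KMS12, by limma's test of the difference, in CCNC (log2 difference 2.03), ADH5 (1.5), SERPINA1 (-1.22) and 2 features with no gene name (1.86 and -1.81). H929 alone differed from KMS12 in none of these by limma (0 called, 517 genes at an unadjusted p under 0.05). SKMM1, a single array whose spread was taken from the other groups, differed in the same 2 features, by 2.82 and -2.44, the first measured on 2 KMS12 arrays and 1 H929 array. In all, 75 genes and features, CCNC and ADH5 among them, lay above 0 on every H929 and SKMM1 array and below 0 on every KMS12 array, and 70 lay the other way round; for these 2 sets as such the difference was not tested. Line, day and, on 2 KMS12 arrays, hairpin cannot be told apart in these comparisons with days 2-3. The KMS12 2046 array at day 4 shares hairpin and day with H929 and SKMM1. Against that single array the differences were 0.84 for CCNC, 0.95 for ADH5 and -1.49 for SERPINA1. For the 2 features with no gene name they were 1.14 and -1.88.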

How the results depend on the processing

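The counts of called genes depended on single arrays. For H929 and SKMM1 against KMS12 (5 called), the count was 0 without centring, 0 with scaling, 0 in the fit of 6 arrays, 18 and 64 over features on all 6 and all 13 arrays, 3 with only the KMS12 2046 array of day 2, 8 with that of day 4, and 0 to 56 on leaving out 1 array. For H929 against KMS12 (0 called) it was 2, 2, 2 and 4 under the last 4 of these settings, and 0 to 42. For SKMM1 against KMS12 (2 called) the settings as first listed gave 1, 0, 0, 4, 21, 7 and 4, with 1 to 17 on leaving out 1 array. For H929 against SKMM1 (0 called) it was 1 without centring, and 0 to 3. For the mean of the lines against 0 (614 called) it was 0 with only the KMS12 2046 array of day 2, 0 with that of day 4, 1497 in the fit of 13 arrays, and 0 to 731 on leaving out 1 array. Against the uninduced KMS12 arrays, where a dye effect common to all arrays cancels, 562 were called, of which 340 were among the 614. Where a count changed, the cause was not tested. Without SKMM1 its own comparisons give no value. Of 236 repeats of the 20 shared genes' tests, 151 stayed past the threshold and 85 did not. The 20 include IRF4, for whose low ratio the KMS12 arrays were chosen, and the others were chosen on the values tested. Of 171 repeats for 15 genes between lines, 120 stayed on their side of the threshold. Most of these were repeats of the genes chosen for opposite sides of 0, which had not passed. The 5 called genes lost their call in most of their repeats, 42 in number. Another 9 repeats newly passed. No repeat in either set changed direction. No paired analysis was made. The labels link the KMS12 arrays of different days by series, but the fit used group means without a series term. That link was therefore not used in the spread or in the comparison with uninduced KMS12. For H929 the labels give numbered repeats alone. The single SKMM1 array was assumed to vary like the other groups.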

Other observations

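Among 14 genes of splicing and RNA processing, 4 fell in the mean of the lines and 1 rose by limma: HNRNPK (-1.19), HNRNPH1 (-1.10) and the helicases DDX5 (-1.14) and DHX15 (-0.98) fell, and the branch point protein SF1 (0.67) rose. The median of this list changed sign between settings. Of all genes 10.9% fell and 4.0% rose. Of 26 cytosolic ribosomal protein genes 1 fell (3.85%), RPL22 (-0.68), and 1 rose, RPL37A (0.53), and of 6 proteasome genes 1 fell, PSMD14 (-0.82), which shows nothing particular to these lists. In antigen presentation by MHC class I, 2 of 10 genes fell, B2M, the light chain, and ERAP1 (-0.62), which trims peptides. NR4A1, an immediate early nuclear receptor, fell as well (-1.01, adjusted p = 0.0215).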
